A study of Homo sapiens with 9 samples.

Results

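The genes described here are 10 heat shock chaperones of the cytosol and the mitochondrion: HSPA8, HSPA1A, HSPA1B, HSP90AA1, HSP90AB1, HSPH1, DNAJB1, HSPB1, HSPD1 and HSPE1. They were chosen by gene symbol, 10 of 20442 genes in the deposited table, and for each gene the coding span with the highest mean over the libraries was kept. These genes and the related lists used below were chosen with earlier results of these data known. All 10 passed the filter on low values, which left 12391 genes for testing. The study measured poly(A) RNA in PC9 cells, a human lung adenocarcinoma line with an activating EGFR mutation, here carrying the FUCCI4 reporter of cell cycle position. Day 0 cells were labelled untreated, and day 28 cells had been kept in 500 nM osimertinib, an inhibitor of mutant EGFR, for 28 days. In all groups the cells were glyoxal-fixed, made permeable with saponin and then separated by flow cytometry, first on DAPI and then on the reporter, as G1, S or G2.

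At day 0, G1 and S each had 2 libraries, from clone 1 and clone 7, and G2 had 1 library, from clone 1. At day 28, G1 had 2 libraries, from clone 1 and clone 7, and S and G2 had 1 library each, from clone 1. This gave 5 libraries at day 0 and 4 at day 28. No label says that libraries came from separate cultures, so p-values measure the spread between these libraries. Where a group had 1 library, that library was taken to vary like those of the other groups.

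Chaperones help proteins fold and keep unfolded ones from clumping. HSP70 proteins, which include constitutive HSPA8 and stress-inducible HSPA1A and HSPA1B, bind exposed stretches of a client in a cycle driven by ATP. J-domain proteins such as DNAJB1 deliver clients and start ATP hydrolysis, and HSP110 proteins such as HSPH1 release the nucleotide. HSP90 (HSP90AA1 and HSP90AB1) finishes the folding of many kinases, mutant EGFR among its clients, and HSPB1 is a small heat shock protein that holds unfolded clients. In the mitochondrion, HSPD1 and its lid HSPE1 form a folding chamber. Heat shock factor HSF1 switches on many of these genes by binding inverted repeats of the unit NGAAN.

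The promoters of the members were searched for pairs of inverted units, GAANNTTC and TTCNNGAA, each of which reads the same on both strands. RefSeq promoters (GRCh38.p14), reaching from 250 bases before to 50 after a start, were matched for all 10 genes, in 16 entries. At least 1 pair was found for 8 of the 10 genes, the exceptions within these stretches being HSPE1 and HSPH1. The HSPE1 entry, chr2:197500129-197500428, does not reach the nearby HSPD1 entry that held pairs, which ends at chr2:197500090. Bases farther upstream of HSPE1 were not searched as part of its promoter. Counted by promoter, 9 of the 16 entries held a pair, against 13.5% of all 35116 promoters of the same length. Both kinds of pair overlapping by 1 unit, which makes a run of 3 units, were found in 4 of the 16 entries, 1 each for HSPA8, HSP90AA1, HSP90AB1 and HSPD1, against 0.49% of all promoters. The 250 bases before the start are shown for the HSP70 members, whose levels parted after drug, and for HSPD1, whose level followed that of HSPA8. Capitals mark the matched pairs. The stretches are chr11:123062137-123062386 on the minus strand, chr2:197499841-197500090 on the minus strand, chr6:31815293-31815542 on the plus strand and chr6:31827488-31827737 on the plus strand.
HSPA8: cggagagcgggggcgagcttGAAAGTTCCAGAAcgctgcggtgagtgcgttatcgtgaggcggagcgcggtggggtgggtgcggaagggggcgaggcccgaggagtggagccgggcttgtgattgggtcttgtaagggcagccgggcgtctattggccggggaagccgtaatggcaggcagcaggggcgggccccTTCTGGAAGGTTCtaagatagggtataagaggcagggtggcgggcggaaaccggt
HSPD1: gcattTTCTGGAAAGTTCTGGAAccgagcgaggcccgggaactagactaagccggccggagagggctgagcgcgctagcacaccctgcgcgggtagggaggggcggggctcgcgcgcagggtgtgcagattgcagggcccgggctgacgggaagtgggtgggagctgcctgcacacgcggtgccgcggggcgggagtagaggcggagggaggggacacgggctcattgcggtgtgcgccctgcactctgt
HSPA1A: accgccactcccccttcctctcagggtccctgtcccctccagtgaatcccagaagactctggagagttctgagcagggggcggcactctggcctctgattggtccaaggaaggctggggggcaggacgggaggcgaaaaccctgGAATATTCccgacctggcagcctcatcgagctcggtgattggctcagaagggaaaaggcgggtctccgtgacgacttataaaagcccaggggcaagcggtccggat
HSPA1B: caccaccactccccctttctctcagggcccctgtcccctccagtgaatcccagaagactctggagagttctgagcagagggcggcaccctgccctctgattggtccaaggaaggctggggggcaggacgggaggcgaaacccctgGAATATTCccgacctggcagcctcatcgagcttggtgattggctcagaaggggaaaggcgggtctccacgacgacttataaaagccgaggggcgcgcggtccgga
The HSPA8 promoter held 4 pairs, the first beginning 230 bases before the start and the last 50 bases before it. The HSPD1 promoter shown held 3, from 245 to 235 bases before its start. It was the HSPD1 entry with the most pairs, and the other entry, chr2:197500225-197500524, held 0. HSPA1A and HSPA1B each held 1 pair, GAATATTC, at 106 and 105 bases before the start. A match describes these letters and was not tested for binding.

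The libraries held 8.83 M to 108.7 M reads (M, counted in 1e6) over 1 span per gene, as recovered from the deposited values, the shallowest being day 0 G1 clone 7 and the deepest day 0 G1 clone 1. Their mean, 43 M, lies above the 24 M reads that the labels give as an average, and the difference could not be settled from the files. The epithelial markers EPCAM, KRT8, KRT18, KRT19 and CDH1 were present in every library, summing to 13800 to 22000 per 1e6 reads at day 0 and 8970 to 15300 at day 28. The lung markers NKX2-1 and NAPSA were near 0 at day 0 (sum 0.566 to 2.14) and summed to 1.88 to 22.9 at day 28, so that the days overlapped. The 4 leukocyte markers summed to 0.304 to 1.29 at day 0 and 2.13 to 2.66 at day 28, and the 5 fibroblast and endothelial markers to 15.4 to 21.7 and 19.2 to 52.5, most of it COL1A1, with COL3A1 and DCN at or near 0. Of the endothelial markers, PECAM1 was at 2.309 to 8.23 at day 0 and at 0.6228 to 1.671 at day 28. VWF went the other way, at 0.3636 to 0.5666 at day 0 and 2.065 to 5.571 at day 28. The fibroblast and endothelial sums overlapped between the days, and the leukocyte sums did not. The part of these small levels in the results was not tested. RNA encoded by mitochondrial DNA made up a share of 6.07% to 10.7% in day 0 libraries, against 8.61% to 21.6% in day 28 libraries. Genes with spans over 300 kb took 0.726% to 1.05% at day 0 and 2.06% to 3.41% at day 28.

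Of the 10 chaperones, 8 fell between day 0 and day 28 and none rose, and the inducible HSP70 genes HSPA1A and HSPA1B were called in neither direction. The largest fall was that of HSPA8, the most abundant of the 3 HSP70 members in untreated cells, which was 5.63-fold lower at day 28. HSPD1 and HSPE1, the mitochondrial chaperonin pair, fell by 1.55 and 1.42 on the log2 scale. Over all tested genes, 26.6% were called lower and 28.6% higher, at an adjusted p under 0.05 by limma with Benjamini-Hochberg adjustment over all tested genes. The median change was -1.07 for the members and 0.01 for all tested genes. Together the 10 genes took 1.53% to 2.60% of all reads at day 0 and 0.597% to 1.41% at day 28. On that count no day 28 library reached the lowest day 0 library. The highest at day 28 was G2 and the lowest at day 0 was G1 clone 1. RNA encoded by mitochondrial DNA, which is among these reads, made up 15.8% and 6.07% of them. With that RNA left out of the totals, day 28 G2 would lie above day 0 G1 clone 1, so the days would overlap. In sorted bulk cells, fewer cells with a transcript and less of it per cell cannot be told apart.

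**Figure D1:**
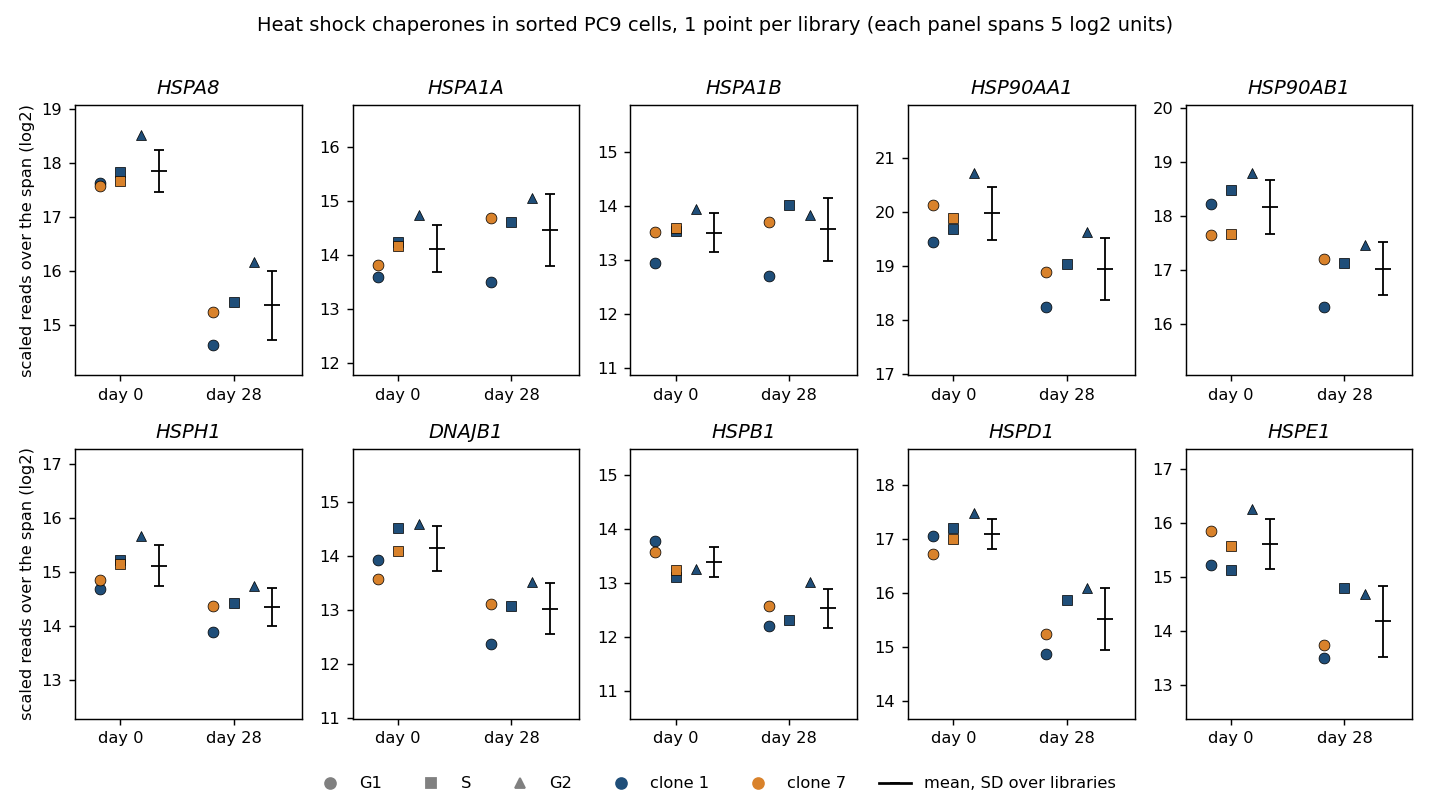
Scaled reads over the coding span (log2, vertical axes) of the 10 chaperones, 1 point per library, by day, with phase as the marker shape and clone as the colour; bars give the mean and SD over the libraries of a day (5 at day 0, 4 at day 28). HSPA8, HSP90AB1, DNAJB1, HSPB1, HSPD1 and HSPE1 do not overlap between the days, and HSPA1A, HSPA1B, HSP90AA1 and HSPH1 do.

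The HSP70 genes parted. HSPA8 (ENSG00000109971; GRCh38 chr11:123057734-123061324), the constitutive HSP70, stood at log2 scaled reads of 17.64 and 17.59 in day 0 G1 (clones 1 and 7), 17.84 and 17.68 in S and 18.52 in G2. At day 28 it stood at 14.63 and 15.25 in G1, 15.43 in S and 16.18 in G2. Every day 28 library was lower than every day 0 library, with G2 the highest on each day. The change was -2.49 ± 0.21 (SE; limma adjusted p = 2.19e-05), which ranked 98 by size among the falls of the 12391 genes.

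HSPA1A and HSPA1B (GRCh38 chr6:31815757-31817682 and chr6:31827951-31829876) encode stress-inducible HSP70. Their coding sequences of 1926 bases differ at 4 bases, and 92.3% of the 75-base stretches of HSPA1A, the length of a read, are also in HSPA1B, so how reads were divided between them is uncertain. HSPA1A stood at 13.60 and 13.82 in day 0 G1, 14.24 and 14.18 in S and 14.74 in G2, and at 13.50 and 14.69 in day 28 G1, 14.61 in S and 15.05 in G2. HSPA1B stood at 12.95 and 13.52 in day 0 G1, 13.54 and 13.60 in S and 13.94 in G2, and at 12.71 and 13.70 in day 28 G1, 14.02 in S and 13.83 in G2. For both genes day 28 G1 clone 1 was the lowest of the 9 libraries and the days overlapped. The change was 0.38 ± 0.23 for HSPA1A (95% interval -0.13 to 0.88; limma adjusted p = 0.187) and 0.10 ± 0.23 for HSPA1B (-0.41 to 0.62; limma adjusted p = 0.727). Summed as 1 gene, they changed by 0.28 ± 0.23 (-0.23 to 0.78; limma adjusted p = 0.332), and by 0.49 without day 28 G1 clone 1 (limma adjusted p = 0.0591). HSPA1A alone was called higher without that library (0.59; limma adjusted p = 0.0301), with quantile scaling (0.73; 0.0184) and with the trend over span length removed (0.79; 0.0140).

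The co-chaperones of HSP70 fell too, with smaller estimates than HSPA8. DNAJB1, a J-domain protein that brings clients to HSP70, was at 13.93 and 13.59 in day 0 G1, 14.52 and 14.10 in S and 14.61 in G2, and at 12.39, 13.12, 13.09 and 13.53 at day 28 in the order G1 clones 1 and 7, S and G2. In scaled reads the days did not overlap, although the highest day 28 library lay just under the lowest day 0 library. DNAJB1 changed by -1.09 ± 0.20 (limma adjusted p = 0.00113). HSPH1, the HSP110 exchange factor, was at 14.69 and 14.84 in day 0 G1, 15.22 and 15.14 in S and 15.67 in G2, against 13.89 and 14.36 in day 28 G1, 14.43 in S and 14.73 in G2. Day 28 G2 was the 1 library of that day that reached into the range of day 0. HSPH1 changed by -0.75 ± 0.18 (limma adjusted p = 0.00429), a call lost with quantile scaling (-0.33; 0.112).

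Both cytosolic HSP90 genes fell, the stress-inducible HSP90AA1 by 1.05 and the constitutive HSP90AB1 by 1.14 on the log2 scale. HSP90AA1 was at 19.45 and 20.12 in day 0 G1, 19.68 and 19.88 in S and 20.72 in G2, against 18.23 and 18.89 in day 28 G1, 19.03 in S and 19.62 in G2. Day 28 G2 lay above day 0 G1 clone 1, so the days overlapped (-1.05 ± 0.30; limma adjusted p = 0.0109, and 0.0507 with no filter on low values). HSP90AB1 was at 18.22 and 17.65 in day 0 G1, 18.48 and 17.67 in S and 18.78 in G2, against 16.31 and 17.20 in day 28 G1, 17.12 in S and 17.45 in G2. At day 0 its clone 1 libraries were above those of clone 7. The days did not overlap in scaled reads (-1.14 ± 0.28, limma adjusted p = 0.00505). With quantile scaling, which forces the top ranks of all libraries to the same values, HSP90AB1 changed by -0.14 (limma adjusted p = 0.686) and the median of all genes moved from 0.01 to -0.11.

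HSPB1, the small heat shock protein, had another order of phases. It was at 13.77 and 13.56 in day 0 G1, 13.10 and 13.23 in S and 13.25 in G2, the only member whose highest day 0 library was G1 rather than G2. At day 28 it was at 12.19 and 12.57 in G1, 12.31 in S and 13.01 in G2, all under day 0 on this scale. HSPB1 changed by -0.91 ± 0.21 (limma adjusted p = 0.00362), and by -0.47 over its narrowest coding span (0.245).

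The mitochondrial pair was lower at day 28 in all 4 matched pairs of libraries. HSPD1 was at 17.07 and 16.73 in day 0 G1, 17.20 and 17.01 in S and 17.49 in G2, against 14.87 and 15.24 in day 28 G1, 15.88 in S and 16.11 in G2. HSPE1, which shares a bidirectional promoter region with HSPD1 on chromosome 2, was at 15.23 and 15.85 in day 0 G1, 15.13 and 15.57 in S and 16.25 in G2, against 13.50 and 13.73 in day 28 G1, 14.79 in S and 14.69 in G2. Neither gene overlapped between the days, and in both the day 28 G1 libraries were the lowest. The changes were -1.55 ± 0.21 (limma adjusted p = 1.86e-04) and -1.42 ± 0.26 (limma adjusted p = 0.00104). Of the 75-base stretches of HSPE1, 72.8% are shared with another gene, among them the read-through gene HSPE1-MOB4, so its value is uncertain.

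In all, 6 of the 10 members had no overlap between the days, each with day 28 lower, where 18.9% of all tested genes did. Day 28 G1 clone 1 was the lowest of the 9 libraries for 10 of the 10 members, against 15.3% of all tested genes. Day 0 G2 was the highest of the 5 day 0 libraries for 9 of the 10, against 27.1%. Without any 1 library the count of members that fell stayed at 8. It was 8 in 18 of 21 alternatives, 7 with no filter and with the narrowest spans, and 6 with quantile scaling. Genes with coding spans up to 2 kb had a median change of -0.54 and those over 100 kb of 1.04, and the members other than HSP90AA1 had spans from 1.46 to 24.8 kb, under the median of 25.8 kb. With that trend removed 8 members were called lower, with smaller changes for 7 of them: HSPA8 was at -2.13, DNAJB1 at -0.69 and HSPB1 at -0.48 (limma adjusted p = 0.0482 for HSPB1), and HSP90AA1 was at -1.29. HSP90AA1 entered that step at its full span of 57.7 kb. The upstream 37.5 kb of it held 49 to 785 reads a library, so its value with the trend removed is uncertain. The larger mitochondrial share at day 28 moved with the same contrast, and its part in the result was not tested.

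**Figure D2:**
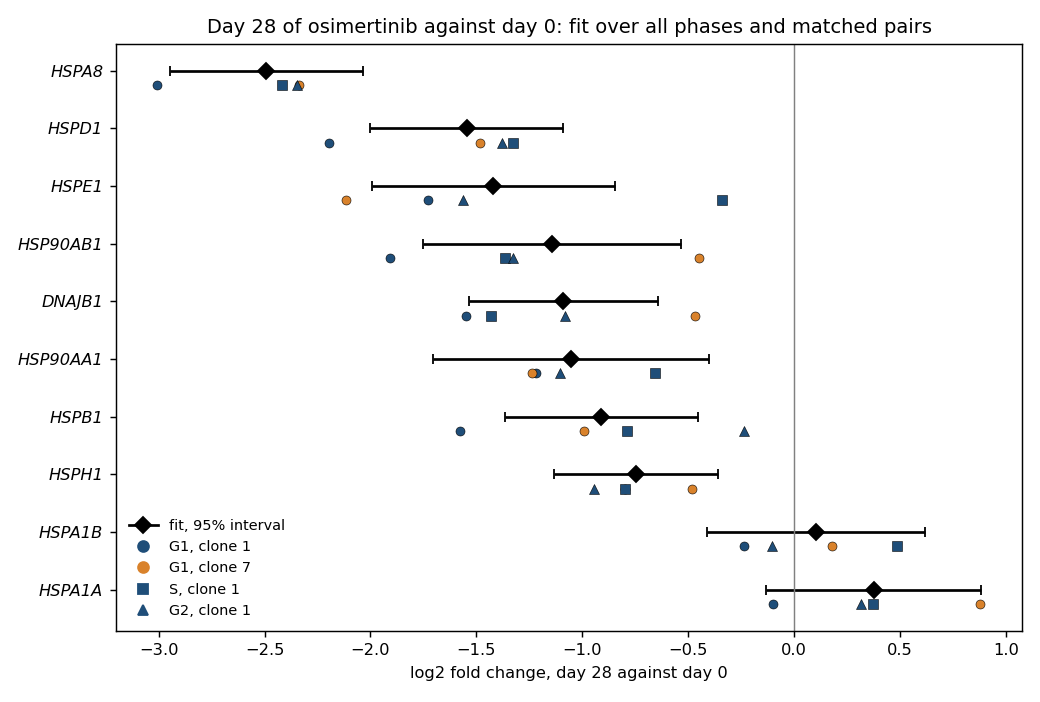
Log2 fold change of day 28 against day 0 (horizontal axis) for each chaperone; diamonds give the fit over all phases with its 95% interval, and small symbols the difference between single matched libraries. HSPA8 lies farthest to the left in the fit, at -2.49, and the intervals of HSPA1A and HSPA1B include 0.

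Within G1, where each day had both clones, 5 of the 10 members were called lower, against 19.1% of all tested genes, and none higher, against 19.8%. HSPA8 fell by 2.67, HSPE1 by 1.92, HSPD1 by 1.84, HSPB1 by 1.28 and DNAJB1 by 1.01 on the log2 scale (limma adjusted p = 0.00257, 0.00476, 0.00464, 0.00833 and 0.0419). With clone as a replicate block 7 were called, adding HSP90AA1 (-1.23; limma adjusted p = 0.0688 without and 0.0150 with the block) and HSPH1 (-0.64; 0.0866 and 0.0449). HSP90AB1 differed most between the clones, by -1.91 in clone 1 and -0.45 in clone 7 (limma adjusted p for G1 = 0.0738). HSPA1A was at -0.10 in clone 1 and 0.88 in clone 7, and was called higher in G1 without day 28 G1 clone 1 (0.98; 0.0460). DNAJB1 was no longer called when 1 of the G1 or S libraries of day 0, or clone 1 of day 28 G1, was left out (limma adjusted p from 0.0581 to 0.177), with quantile scaling (0.0701) and with the span trend removed (0.267). The HSPB1 call was lost over its narrowest span (0.149) and with the span trend removed (0.0577).

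In S, with 2 libraries at day 0 and 1 at day 28, HSPA8 was the member called lower (-2.33 ± 0.38; limma adjusted p = 0.0295), against 2.9% of all tested genes, and none was called higher, against 4.37%. With clone as a replicate block HSPD1 was called too (-1.26; limma adjusted p = 0.0466). HSPA8 was not called when either S library of day 0 was left out (0.0834 and 0.117), nor when either G1 library of day 28 was (0.0557 and 0.0558), with the change staying between -2.42 and -2.25. The smallest difference among the falling members of the fit was that of HSPE1, at -0.34 between the S libraries of clone 1.

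In G2, with 1 library on each day and no test, 6 of the 10 members were lower by 2-fold or more at day 28, against 17.3% of all tested genes, and none was higher by as much, against 21.8%. With quantile scaling 2 members were lower by that much. HSPA8 differed by -2.35, HSPE1 by -1.56, HSPD1 by -1.38, HSP90AB1 by -1.33, HSP90AA1 by -1.10 and DNAJB1 by -1.08. HSPH1 differed by -0.94, HSPB1 by -0.24, HSPA1B by -0.10 and HSPA1A by 0.31.

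Whether the drug contrast differed between G1 and the cycling phases was tested as an interaction. None of the 10 members was called, where 0% of all tested genes were, and none passed an unadjusted p of 0.05, against 1382 of all genes. limma-voom on recovered reads called none either. With clone as a replicate block HSPB1 and HSPE1 passed an unadjusted p of 0.05, against 1939 of all genes, and no member was called. The largest estimates were a smaller fall in S and G2 for HSPE1 (0.93 ± 0.45; limma adjusted p = 0.486) and HSPB1 (0.70 ± 0.36; 0.512).

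Among untreated cells, S was compared with G1. No member was called, where 0% of all genes were, and no member passed an unadjusted p of 0.05, against 443 of all genes, nor did limma-voom call any. DNAJB1 was at 0.55 and HSPB1 at -0.50 (limma adjusted p = 0.999 for both), and the day 0 G2 library was the highest for every member but HSPB1. At day 28, cycling cells (S and G2) were compared with G1. All 10 members had positive differences, from 0.28 for HSPB1 to 1.12 for HSPE1, where 49.7% of all tested genes did. Day 28 G1 clone 1, the lowest of the 9 libraries for every member, is 1 of the 2 G1 libraries here, and without it the 10 differences ran from 0.088 to 1.01. No member was called, against 2.9% of all genes called higher and 1.85% lower. HSPE1, HSPD1 and HSPA8 passed an unadjusted p of 0.05 (1.12 ± 0.31, 0.94 ± 0.29 and 0.86 ± 0.31; limma adjusted p = 0.0796, 0.105 and 0.143), and limma-voom called none. With clone as a replicate block 6 members passed an unadjusted p of 0.05, adding HSP90AA1, HSPA1A and HSPA1B, and HSPE1 was called (1.34; limma adjusted p = 0.0263), as it was with quantile scaling (1.25; 0.0216).

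Clone 7 was compared with clone 1 over the groups that hold both. No member was called, against 0.387% of all genes called higher and 0.226% lower, none passed an unadjusted p of 0.05 (1937 of all genes did), and limma-voom called none. The largest estimates were 0.43 ± 0.24 for HSPA1B and 0.41 ± 0.24 for HSPA1A (limma adjusted p = 0.419 and 0.436), with 95% intervals that reach 0.95 and 0.93.

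Levels per length place HSP90AA1 at the top. In reads per kb of coding sequence per 1e6 reads, the mean ± SD was 3955 ± 1177 for HSP90AA1 at day 0 (n = 5) and 2388 ± 860 at day 28 (n = 4). HSPE1 stood at 1595 ± 410 and 746 ± 292, HSP90AB1 at 1359 ± 471 and 735 ± 209, and HSPA8 at 1201 ± 321 and 270 ± 115, on the same scale. These 3 overlapped at day 0. HSPD1 followed at 796 ± 160 and 333 ± 114. The remaining members lay lower, DNAJB1 at 177 ± 53.0 and 98.2 ± 27.9, HSPB1 at 169 ± 39.2 and 113 ± 28.3 and HSPH1 at 135 ± 33.0 and 95.3 ± 19.6. HSPA1A was at 90.9 ± 25.4 and 145 ± 53.5, and HSPA1B, the lowest, at 58.8 ± 11.2 and 76.6 ± 23.9. At day 28 the order had shifted, with HSPA8 now beside HSPD1 rather than HSP90AB1 and HSPA1A above DNAJB1, HSPB1 and HSPH1 in mean, all 4 within one another's spread. Reads of introns are included in these levels.

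Ratios within a library do not depend on how libraries were scaled. HSPA8 was taken as a common denominator after its fall was known, so no test is given for it. HSPA1A per HSPA8 was 0.0612 to 0.0890 at day 0 and 0.460 to 0.686 at day 28, on average 7.13-fold higher, and HSPA1B per HSPA8 was 0.0389 to 0.0601 at day 0 and 0.199 to 0.381 at day 28. HSP90AA1 per HSPA8 went from 2.64 to 4.40 at day 0 to 8.20 to 9.42 at day 28. The ratios of HSPH1 and DNAJB1 to HSPA8 were 3.30-fold and 2.57-fold higher, none of these 5 ratios overlapping between the days. The fall of HSPA8 itself raises every ratio to it, also for HSPH1, DNAJB1 and HSP90AA1, which fell. The share of all tested genes whose ratio to HSPA8 would lie apart was not computed. Of the pairs that work together, HSPD1 per HSPE1 differed 0.903-fold, with overlap (exact permutation p = 0.571, 2-sided; 0.653 adjusted over the 8 ratios computed). HSP90AA1 per HSP90AB1 differed 1.08-fold (exact permutation p = 0.762; adjusted 0.762), and HSPA1A per HSPA1B 1.22-fold (exact permutation p = 0.127; adjusted 0.169). The smallest p that 4 against 5 libraries allow is 0.0159.

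**Figure D3:**
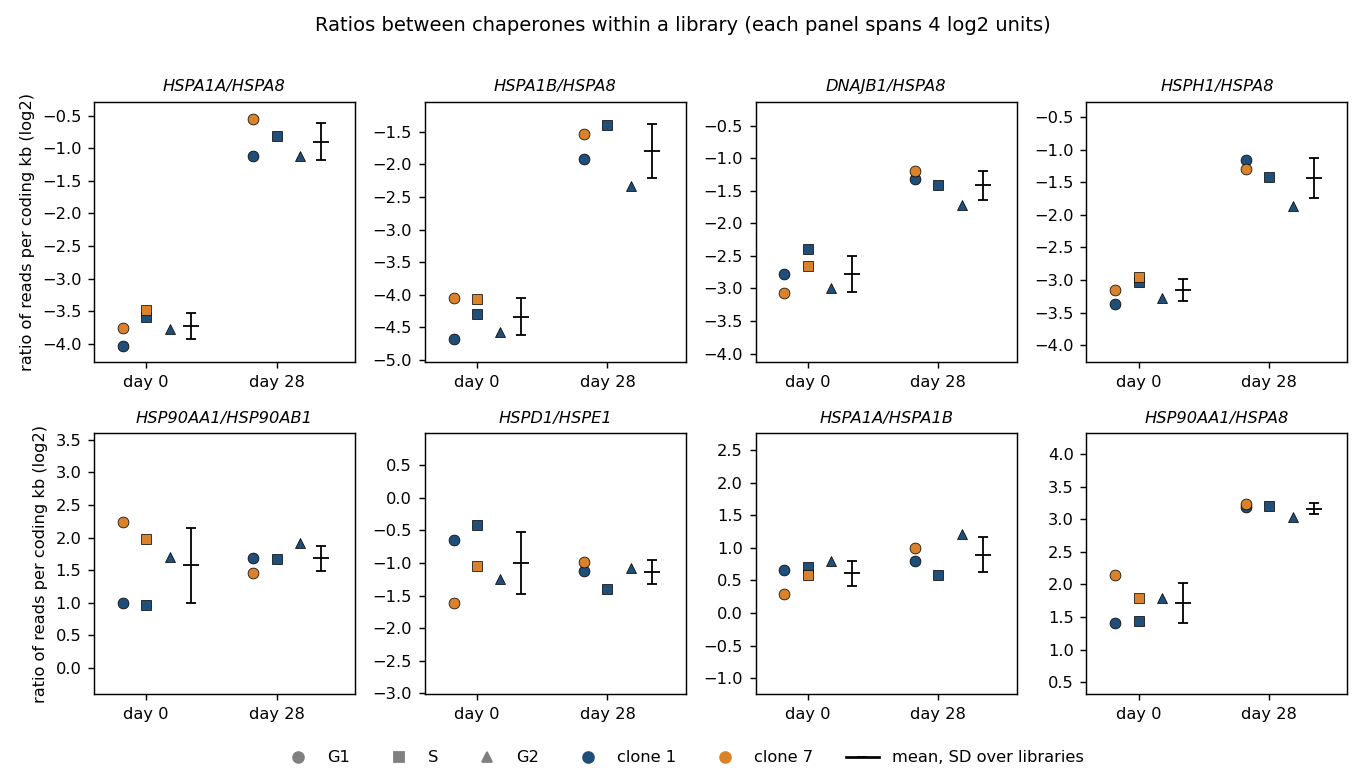
Log2 ratio of reads per coding kb between 2 chaperones within a library (vertical axes), 1 point per library by day, with the mean and SD over the libraries of a day. The 5 ratios to HSPA8 lie apart between the days, and HSP90AA1/HSP90AB1, HSPD1/HSPE1 and HSPA1A/HSPA1B overlap.

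Across the 9 libraries the members' log2 values moved together in part. Pearson's r was 0.982 between HSPA8 and HSPD1 and 0.965 between DNAJB1 and HSP90AB1, 0.879 between HSPA1A and HSPA1B, and -0.029 between HSPA1A and HSPA8. These describe 9 libraries that share the day contrast and depth, and carry no test. The 5 genes whose pattern was most like the mean of the members were CSNK2A2, DKC1, PIGK, PAK1IP1 and RBM19, with Pearson r from 0.987 to 0.993 over the 9 libraries.

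The deposited table also lists shorter coding spans, so reads of the 5' part of a span could be set against those of the rest in 5696 genes. Over these genes 14.9% had a 5' part that fell further and 10.8% one that fell less or rose, and the median change of the ratio was -0.28. Among the 1505 of them with spans up to 12 kb, 227 went the first way and 28 the second, with a median of -0.41. In HSPD1, with a span of 11.8 kb, the 5' part was chr2:197497373-197498848, the first exons and introns of the coding span. It held 144 to 8497 reads a library. This part changed by -2.93 and the rest by -1.51, a difference of -1.42 ± 0.37 (limma adjusted p = 0.0231). That call was lost without day 0 G1 clone 1, day 0 S clone 1, day 28 G1 clone 7 or day 28 S (limma adjusted p from 0.0583 to 0.0666). In HSP90AA1 the part of the span upstream of its promoter with 3 units (promoter at chr14:102086995-102087294, part at chr14:102101938-102139404, 37.5 kb, 49 to 785 reads a library) changed by 1.45 ± 0.31 and the rest by -1.06, a difference of 2.51 ± 0.58 (limma adjusted p = 0.0143), lost without day 28 G1 clone 1 (0.0549) or day 28 S (0.0639). HSPA8 (-0.69; 0.136), HSPH1 (-0.77; 0.130, and 0.0497 with the replicate block), HSPB1 (-0.12; 0.754) and DNAJB1 (-0.03; 0.944) were not called.

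**Figure D4:**
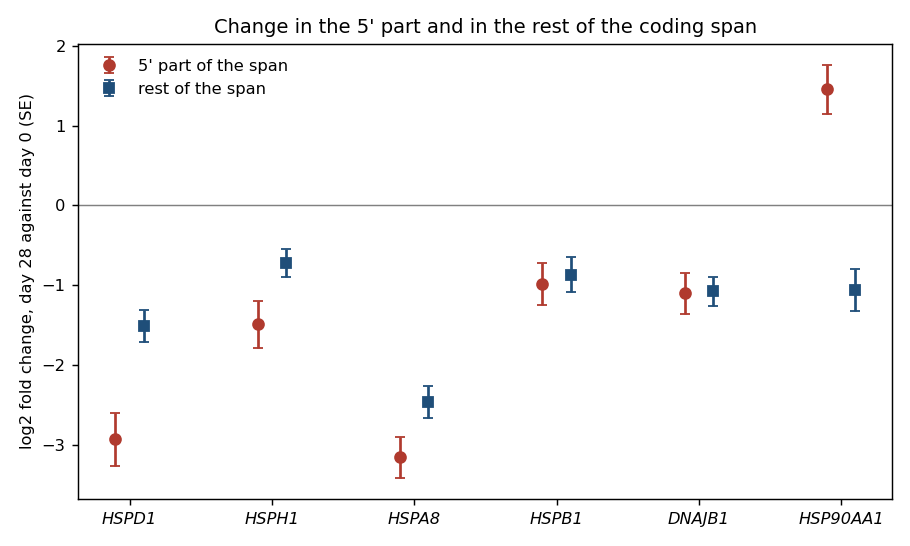
Log2 fold change of day 28 against day 0 (vertical axis, bars are SE) in the 5' part of the coding span and in the rest of it, for the 6 members with such a part. The 5' part of HSPD1 lies below the rest, at -2.93 against -1.51, and the upstream part of HSP90AA1 lies above, at 1.45 against -1.06.

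Related chaperone genes outside the 10 mostly moved the same way. Of 104 related genes 94 were tested, 56 fell and 5 rose, with a median of -0.82, against 26.6% and 28.6% of all genes. Among HSP70 relatives 4 of 8 fell, including HYOU1 and HSPA5, which serve the endoplasmic reticulum (-1.83 and -1.35; limma adjusted p = 5.2e-05 and 2.41e-04), and mitochondrial HSPA9 (-1.32; 2.24e-04). Testis-enriched HSPA2, named after its value was seen as the 1 relative that rose, changed the other way (1.17; limma adjusted p = 0.0185), but was not called when either G2 library, the day 28 S library or clone 1 of day 28 G1 was left out (0.0525 to 0.0956).

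Of 20 J-domain genes tested 12 fell and 1 rose, against 26.6% and 28.6% of all tested genes. DNAJB9, of the endoplasmic reticulum, fell by 2.30 (limma adjusted p = 0.0214, lost without day 0 G2 or day 28 G1 clone 1, 0.0736 and 0.0527, and with the span trend removed, 0.0596), DNAJA2 fell by 1.52 and DNAJC9 fell by 1.17. Among 11 nucleotide exchange factors and HSP70 adaptors 4 fell, a count nearer to that 26.6%. The mitochondrial exchange factor GRPEL1 fell by 1.55 (limma adjusted p = 0.00890, lost without either G2 library, 0.0537 and 0.0513), BAG2 fell by 1.25 and BAG3 fell by 1.09.

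Of the 14 HSP90 paralogs and co-chaperones 10 fell, and of the 12 co-chaperones among them 9 fell, led by FKBP4 (-2.03), CACYBP (-1.66) and STIP1 (-1.62), which links HSP70 to HSP90. The mitochondrial HSP90 paralog TRAP1 fell by 1.34 (limma adjusted p = 0.00114). The endoplasmic reticulum paralog HSP90B1 was at -0.51 (limma adjusted p = 0.101), at 0.64 with quantile scaling (0.0159) and at -1.50 over its narrowest span (4.29e-04). The cytosolic chaperonin TRiC and its helper prefoldin fell in 12 of 16 genes, with a median of -1.22, led by CCT4 (-2.07), CCT7 (-1.79) and CCT3 (-1.61). Of 14 other mitochondrial proteostasis genes 10 fell and 1 rose, led by the protease subunit CLPP (-1.54) and the import subunits TOMM20 (-1.47) and TIMM23 (-1.29).

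Of the heat shock factors and their regulator HSBP1, HSF4 rose (2.70; limma adjusted p = 2.2e-05) and HSBP1 fell (-1.34; 0.00113). HSF1, the main heat shock factor, was at -0.40 (limma adjusted p = 0.102), and was called lower in clone 1 alone (-0.58; 0.0349) and without day 0 G1 clone 7 (-0.51; 0.0470). HSF2 was at 0.16 (0.542). Of 16 other HSF1 targets 11 fell and 1 rose, HSPB8, the 1 other small heat shock protein of 8 with enough reads to test (1.13; limma adjusted p = 0.0175). That call was lost without day 0 G2, day 28 G1 clone 7 or day 28 G2 (0.0507 to 0.0760) and with quantile scaling (0.134).

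**Figure D5:**
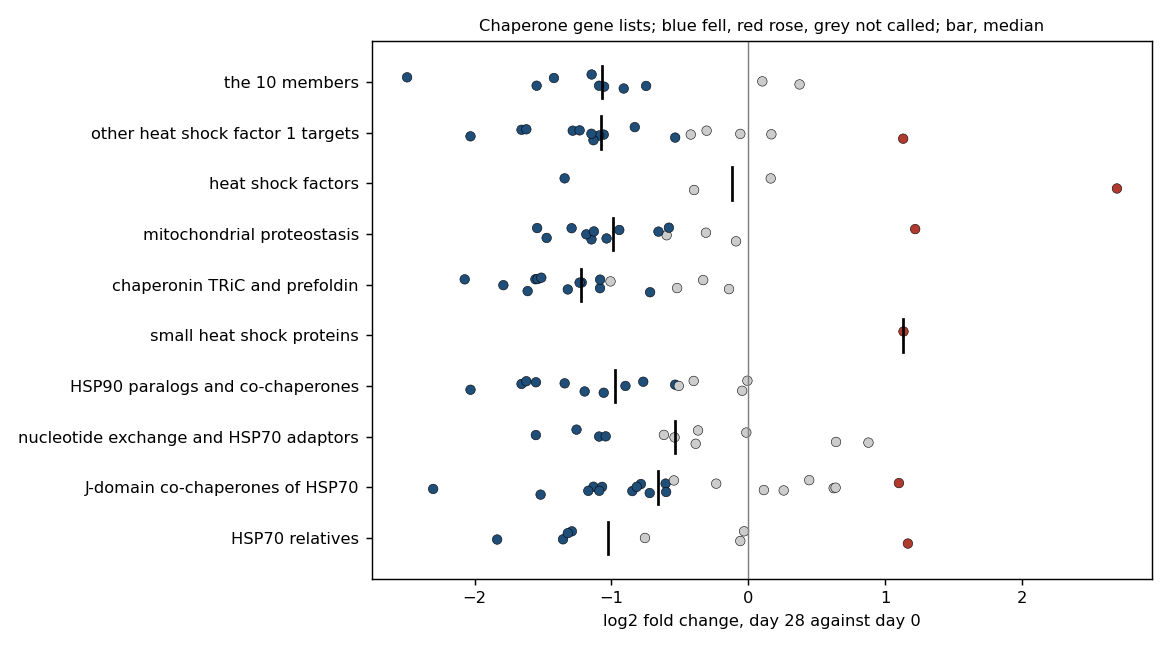
Log2 fold change of day 28 against day 0 (horizontal axis) for each tested gene of the related lists and the 10 members, 1 point per gene, coloured by call, with the median of each list as a bar. Most points of the HSP90, chaperonin and mitochondrial lists lie to the left of 0, and HSF4 stands alone at 2.70.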

How the data were processed

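Poly(A) RNA of sorted PC9 cells was sequenced in 9 stranded libraries (75-base single-end reads, per the labels' protocols). The authors deposited log2 values per coding span for 80037 transcripts; HISAT2 2.1.0, DESeq2 and build GRCh38 are named in the submitters' processing notes, and the counting tool is not given in the sources used here. Linear values were whole multiples of 1 factor per library, within 0.05 read for 100% of values up to 1000 reads, with 0.9 read entered where there was none; spans include introns. The 10 members and all lists were chosen with earlier results of these data known.

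limma 3.58.1 (R 4.3.3; trend, 2-sided, Benjamini-Hochberg over all tested genes) was run on log2(linear value + 1) for genes with a mean of at least 7.01, which is 10 reads in the shallowest library. All 9 libraries entered each fit: phase and day as additive terms, 6 group means for G1, S, cycling and day 0 contrasts, and added terms for the interaction or clone. The limma fit was tested on simulated data for day 28 against day 0 (all phases, G1 and S) and for the interaction. The other steps were not tested in that way. Fold changes are on this log2 scale, which understates changes of low genes. Named genes were all members, up to 3 called genes per list with the largest change, HSF1, HSF2, HSPA5, HSP90B1, HSPA9, TRAP1 and BAG3, and the 5 genes of likest pattern; HSPA2 was added after its value was seen. The labels give clone numbers in each group. The clones' deviations correlated over 12391 genes at 0.653 between day 0 G1 and day 0 S. Those of day 28 G1 correlated at 0.116 with day 0 G1 and at 0.296 with day 0 S. Clone was left out of the main fits, apart from the comparison of clones, and entered as a block only where the block is named. Ratios and the comparison of 5' parts were added after the data were seen. Shared 75-base stretches were counted in GENCODE 29 coding sequences against all its transcripts.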

Additional observations from a re-analysis of the deposited data

Results flagged for a closer look

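HSPA8 in the day 0 G2 library, at log2 scaled reads of 18.52, stood apart from the other 4 day 0 libraries, the nearest of which was at 17.84; the gap was 0.723 of the whole range, above the limit of 0.71 for 5 values. It was 1 of 36 sets of day libraries examined, and chance alone flags about 1 set in 20. The 5 libraries differ in phase, and G2 had 1 library at day 0. HSPA1B moved in opposite directions in the cycling phases of clone 1, by 0.49 in S and by -0.10 in G2, with 1 library per day in each. That difference was not tested.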

How the results depend on the processing

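The limma results over whole spans were recomputed with other scalings, filters, pseudocounts, spans and tests, with clone as a replicate block and without each library. Ratios were recomputed without each library only, and 5' parts and the sum of HSPA1A and HSPA1B also with the block. The G2 differences were recomputed with other scalings and the narrowest span. Levels per kb, correlations and promoter matches were not recomputed. Overlaps of single members between the days were set out in scaled reads and in levels per kb only. The 8 falling members stayed lower in every alternative, and calls that ended are given beside the results. The fall of HSPA8 ranged from -3.15 (narrowest span) to -1.67 (quantile scaling) and that of HSPD1 from -2.93 to -0.72 under the same 2. Members called higher over all phases numbered 1 with quantile scaling and 1 with the span trend removed, and 0 to 1 without single libraries, as they did in G1. Related genes that rose numbered 8 with quantile scaling, 3 over the narrowest spans and 4 to 7 without single libraries. In S, 2 members were lower with the replicate block and 2 by limma-voom, and 0 to 1 without single libraries. In cycling against G1 cells at day 28, 1 member was higher with quantile scaling and 1 with the replicate block. In G2, 2 members were lower by 2-fold or more with quantile scaling. Without single libraries HSPA1B ranged from -0.0529 to 0.307, HSF2 from -0.0256 to 0.305, HSPA1A in G1 from -0.21 to 0.98, HSPA1B in G1 from -0.52 to 0.47, the log2 ratio HSP90AA1/HSP90AB1 from -0.0444 to 0.274 and the 5' part of DNAJB1 from -0.133 to 0.0818. HSPA1B in G1 turned from -0.03 to 0.10 with quantile scaling, 0.54 with the span trend removed and 0.0214 by limma-voom, and HSP90B1 turned to 0.64 with quantile scaling. The cause was not tested. The block changed no other call of a member. The shallowest library, day 0 G1 clone 7, still held 911 reads over HSPA1B, its lowest member.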
